A study of Mus musculus with 7 samples.

Results

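The genes described here encode the proteins of the mitochondrial ribosome, the mitoribosome. They were taken as every gene of the deposited table whose symbol begins with Mrpl (large subunit) or Mrps (small subunit) followed by a number. The rule found 77 of the 22564 genes listed, 47 Mrpl and 30 Mrps. The 7 libraries were made from liver RNA of C57bl/6 mice: 3 from mice treated with phosphate-buffered saline (PBS 1 to PBS 3) and 4 from mice treated with parathyroid hormone (PTH 1 to PTH 4), a peptide hormone whose receptor raises cyclic AMP. In the titles PBS samples carry a C and PTH samples a C+P. What C means is not stated in these labels, and a treatment shared by both groups cannot be told from them. Dose, time and age were also not stated. Nothing says that the libraries came from different animals, so the p-values below cover the spread between libraries, which may be technical.

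The mitoribosome stands in the mitochondrial matrix and translates the few messenger RNAs of mitochondrial DNA, all of which code for subunits of the respiratory chain and ATP synthase. Its ribosomal RNA is made inside mitochondria, but all of its proteins are encoded in the nucleus, made in the cytosol and imported. Liver cells hold many mitochondria and depend on this supply for oxidative metabolism. Symbols do not always give the place of a protein in the particle: structures of human and pig mitoribosomes place the products of Mrps30 and Mrps18a in the large subunit, and Mrps36 is now known as a component of the 2-oxoglutarate dehydrogenase complex. Roles given below come mainly from human and pig structures and from bacterial counterparts.

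Values are FPKM (fragments scaled to transcript length and library depth), and changes are PTH minus PBS on the log2(FPKM + 0.5) scale, which understates the change of low genes. Reads per library, estimated by taking the common step between a library's deposited values as 1 read, ran from 1200686 to 3281535, and each library gave the member genes between 1114 and 6258 of them. The median member had 12.0 to 28.0 estimated reads in a PBS library and 25.4 to 70.5 in a PTH library, and 27 members had under 10 in PBS 3. The whole table lay higher in PTH: the median change of the 11861 tested genes was 0.55 as deposited and -0.024 after each library was shifted to a common median. Of all calls, 90.6% were higher in PTH as deposited and 38.2% at the common median. The summed FPKM of 8 hepatocyte markers ran from 15870 to 36140 in PBS and from 21960 to 37540 in PTH, and none of the 8 was at 0 in a group. Between bulk livers, fewer cells of a type and less RNA per cell cannot be told apart.

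In PTH livers 21 of 76 tested mitoribosome genes rose (27.6%) and none fell, beside a table in which most called genes were higher. By limma with Benjamini-Hochberg adjustment over all tested genes, 15 of 47 Mrpl genes (31.9%) and 6 of 29 tested Mrps genes (20.7%) rose, against a background of 22.8% of all tested genes. No member fell, against 2.37% of all tested genes, and no member was lower at an unadjusted p under 0.05. At that p 33 of 76 members (43.4%) were higher, against 36.6% of all tested genes. The median log2 change was 0.70 over the Mrpl genes and 0.55 over the Mrps genes as deposited, and 0.13 and -0.027 at the common median, where the Mrps median thus lay below 0. Above the median of all tested genes lay 37 of 47 Mrpl and 14 of 29 Mrps genes. The difference between the subunits was not tested. Counting Mrps30 and Mrps18a with the large subunit and Mrps36 with neither, a split made after the values were seen, 17 of 49 large subunit and 4 of 26 small subunit genes rose.

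The number of calls depended on the scaling and on single libraries. At the common median 4 Mrpl genes (Mrpl45, Mrpl50, Mrpl22 and Mrpl33) and 1 Mrps gene (Mrps18b) stayed above the threshold, against 3.25% of all tested genes higher and 5.25% lower, and no member was called lower. Leaving out PBS 2, PBS 3 or PTH 2 took the Mrpl count from 15 to 7, 6 and 6, and the Mrps count of 6 fell to 2, 2 and 3 without these libraries and to 3 without PTH 3. Calls over all tested genes fell with them, to 11.0% and 10.6% higher when PBS 2 or PBS 3 was left out and to 8.57% and 13.6% when PTH 2 or PTH 3 was. The members' share of 27.6% against 22.8% did not stay above the background in every such fit. It was above without PBS 1 (25.0% against 18.7%), PBS 2 (11.8% against 11.0%) and PTH 2 (11.8% against 8.57%). The same held without PTH 3 (17.1% against 13.6%) and PTH 4 (32.9% against 20.6%). Without PBS 3 the members' share was 10.5% against 10.6%. Without PTH 1, 11 of 47 Mrpl and 4 of 29 Mrps genes rose, 19.7% of the members against 23.5% of all tested genes. The median change of the members was then 0.53, as was that of all tested genes. Every PTH library lay above every PBS library for 18 Mrpl genes (38.3%) and 8 Mrps genes (27.6%), against 32.9% of all tested genes. At the common median this held for 9 Mrpl genes (19.1%) and 3 Mrps genes (10.3%), against 11.0%.

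**Figure D1:**
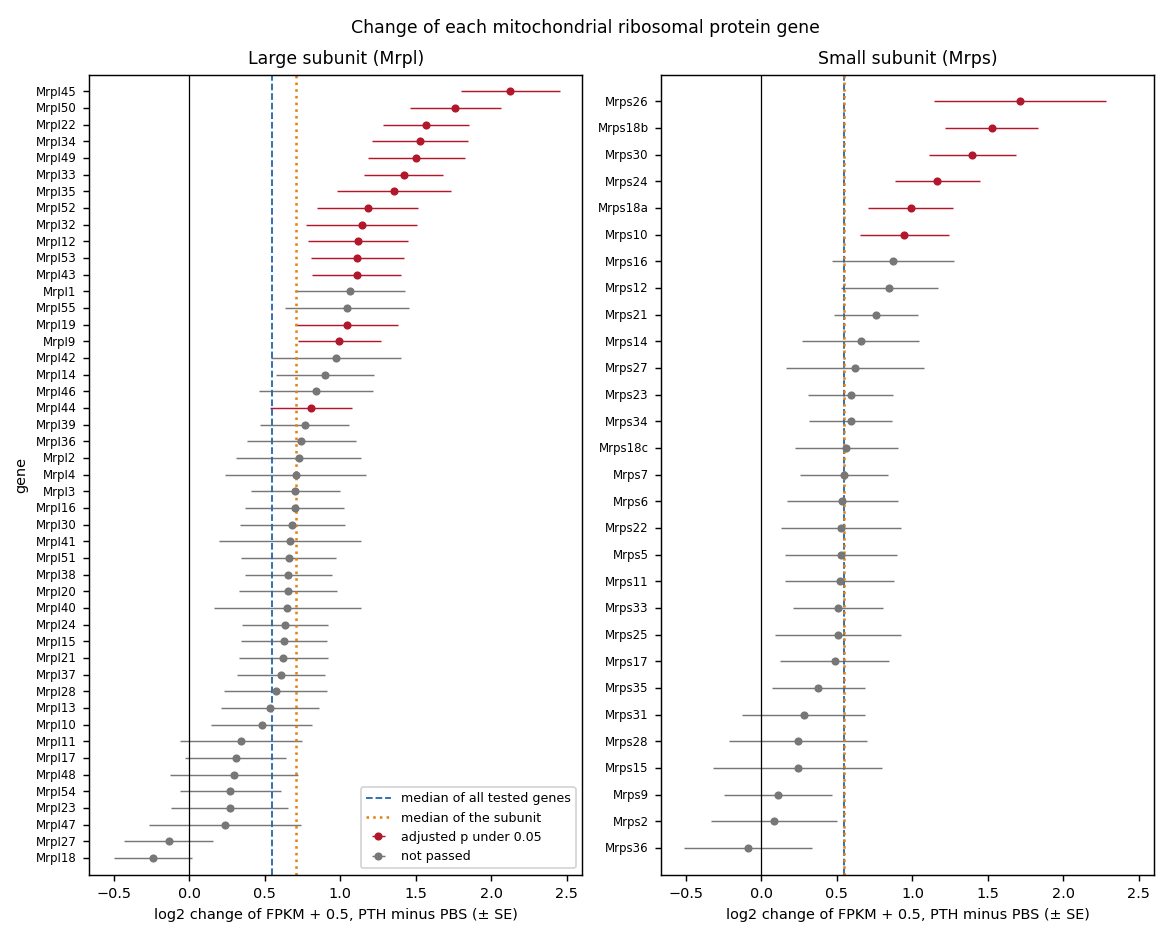
Each point is the fitted log2 change of FPKM + 0.5 (PTH minus PBS, horizontal axis) of 1 tested gene, with its standard error as a bar, for 47 Mrpl genes (left) and 29 Mrps genes (right); red points passed an adjusted p of 0.05. The dotted line is the median of the subunit (0.70 and 0.55) and the dashed line that of all tested genes (0.55): most Mrpl points lie to the right of the dashed line, and Mrps points lie evenly around it.

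In GENCODE M21 (GRCm38) the called genes described first lie at chr11:97315716-97329920 (Mrpl45, plus strand), chr4:49512596-49521093 (Mrpl50, minus strand), chr11:58171661-58179565 (Mrpl22, plus strand) and chr17:35910379-35916389 (Mrps18b, minus strand). Mrpl45, whose product sits at the exit of the peptide tunnel and holds the mitoribosome to the inner membrane, had the largest change of all members. Its FPKM was 2.91, 1.32 and 1.95 over PBS 1 to 3, against 9.61, 14.4, 10.7 and 7.60 over PTH 1 to 4. The lowest PTH library was above the highest PBS library, and PTH 2 was the highest. The mean was 2.06 ± 0.798 (SD, n = 3) in PBS and 10.6 ± 2.84 (SD, n = 4) in PTH. The log2 change was 2.13 (SE 0.33, limma adjusted p 0.00373) as deposited and 1.55 at the common median (limma adjusted p 0.0139). It rested on 10 to 28 estimated reads in the PBS libraries and 37.0 to 137.0 in the PTH libraries. Mrpl45 passed in all 19 alternatives run. With the common median and each of the 7 libraries left out, it passed in 6 and missed without PTH 2. Of all genes tested in those 7 fits, 0.584% to 5.55% were higher.

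Mrpl50, a large subunit protein without a bacterial counterpart, stood at 7.11, 7.21 and 5.36 FPKM in PBS and 29.0, 28.9, 23.6 and 14.7 in PTH. The groups did not overlap, and PTH 4 lay well below the other PTH libraries. On the log2 scale it rose by 1.76 (SE 0.30, limma adjusted p 0.00494), and 1.19 at the common median (limma adjusted p 0.0201). Mrpl22 encodes a protein that lines the peptide exit tunnel. Its FPKM was 7.91, 6.37 and 3.73 in PBS and 17.8, 18.9, 17.4 and 18.03 in PTH. The 4 PTH libraries were nearly equal, with a mean of 18.04 ± 0.602 (SD, n = 4), while PBS 3 was lowest on 4.0 estimated reads. This was a log2 change of 1.57 (SE 0.29, limma adjusted p 0.00644), and 0.99 at the common median (limma adjusted p 0.0341). Mrpl33, a small protein with a bacterial counterpart, has a locus that the table also lists for 2 other genes, which makes its values uncertain. It stood at 13.2, 11.04 and 7.62 FPKM in PBS and 26.5, 32.2, 28.9 and 26.9 in PTH, with no overlap. Its rise on the log2 scale was 1.42 (SE 0.26, limma adjusted p 0.00671), and 0.85 at the common median (limma adjusted p 0.0371). These 3 genes also passed in every alternative in which they were tested (19, 19 and 17). With the common median and a library left out, Mrpl50 passed in 3 of 7 fits, and Mrpl22 and Mrpl33 in 1 of 7 each, the fit without PTH 1.

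The other 11 Mrpl genes that rose had log2 changes from 0.81 to 1.53, and none of them passed at the common median. Among them Mrpl34 (1.53) and Mrpl49 (1.503, shared locus) passed in every fit that left out a library from the values as deposited. Mrpl12 encodes the protein of the flexible stalk that receives translation factors. It stood at 14.7, 11.1 and 7.31 FPKM in PBS and 31.2, 28.6, 23.5 and 14.8 in PTH, where PTH 4 was barely above PBS 1. Mrpl32, whose product is matured by a protease of the inner membrane, was the only called member whose groups overlapped, PBS 1 being at 14.6 FPKM and PTH 4 at 13.1. The remaining called genes were Mrpl43, Mrpl35, Mrpl9, Mrpl53, Mrpl52, Mrpl19 and Mrpl44. Mrpl44 (limma adjusted p 0.0498) and Mrpl19 (limma adjusted p 0.0446) were nearest to the threshold and passed in only 3 and 5 of 18 alternatives.

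Highest in level over all libraries, on the FPKM scale that allows genes to be compared per length, were Mrpl52, Mrpl17 and Mrpl24. Mrpl52, which has no bacterial counterpart, had 22.9, 18.9 and 15.4 FPKM in PBS and 59.5, 42.8, 56.6 and 24.3 in PTH. The groups did not overlap but PTH 4 nearly met PBS 1. The log2 change of 1.18 (SE 0.33, limma adjusted p 0.0271) lost its call at the common median (0.61, limma adjusted p 0.206). Mrpl24 and Mrpl17 encode proteins near the tunnel exit, and both have shared loci. Mrpl24 stood at 20.3, 15.7 and 15.6 FPKM in PBS and 36.0, 26.0, 29.9 and 18.1 in PTH, and its log2 change of 0.63 did not pass (limma adjusted p 0.118). Mrpl17 stood at 26.2, 37.7 and 16.6 FPKM in PBS and 45.9, 26.4, 34.5 and 23.8 in PTH. The groups overlapped, and its log2 change was 0.31 as deposited (limma adjusted p 0.507) and -0.27 at the common median.

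At the other end were Mrpl18, Mrpl27 and Mrpl47, all with shared loci. Mrpl18 belongs to the central protuberance, where the mammalian mitoribosome carries a transfer RNA in place of the small ribosomal RNA of bacteria. It had 20.6, 24.8 and 20.5 FPKM in PBS and 24.5, 17.4, 17.6 and 15.5 in PTH. PTH 1 lay among the PBS libraries and the other 3 PTH libraries below them. The log2 change was -0.24 as deposited (SE 0.26, limma adjusted p 0.496) and -0.81 at the common median (limma adjusted p 0.0543), where every PTH library was below every PBS library. With the common median and without PTH 1 it passed the threshold as lower, the single such call of a member in any fit. Mrpl27, whose bacterial counterpart reaches into the peptidyl transferase centre, stood at 16.1, 14.9 and 10.8 FPKM in PBS and 14.5, 12.7, 15.7 and 8.27 in PTH. Its groups overlapped as deposited, with a log2 change of -0.14, and did not at the common median, where the change was -0.71 (limma adjusted p 0.0984). Mrpl47, a protein at the tunnel exit, stood at 5.39, 3.27 and 3.42 FPKM in PBS and 10.03, 8.68, 2.03 and 2.54 in PTH. PTH 1 and PTH 2 were above all PBS libraries and PTH 3 and PTH 4 below them, and the log2 change of 0.24 (SE 0.51) turned to -0.34 at the common median.

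The remaining Mrpl genes did not pass. Those with changes above the median of all tested genes were Mrpl1, Mrpl55, Mrpl42, Mrpl14, Mrpl46, Mrpl39, Mrpl36, Mrpl2, Mrpl4, Mrpl3, Mrpl16, Mrpl30, Mrpl41, Mrpl51, Mrpl38, Mrpl20, Mrpl40, Mrpl15, Mrpl21, Mrpl37 and Mrpl28, from 1.07 for Mrpl1 (limma adjusted p 0.0516) to 0.57 for Mrpl28. Of these, Mrpl14, Mrpl39, Mrpl3 and Mrpl15 had groups that did not overlap. Below that median lay Mrpl13, Mrpl10, Mrpl11, Mrpl48, Mrpl54 and Mrpl23, from 0.53 down to 0.27. An exact two-sided permutation test over the 7 libraries cannot go below 0.0571 (2 of 35 splits), so for single genes it cannot pass 0.05.

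Among small subunit genes Mrps18b had the smallest p. It is 1 of 3 nuclear genes, with Mrps18a and Mrps18c, that descend from the gene of a single bacterial protein. Mrps18b (locus also listed for 2 other genes) had 9.77, 11.7 and 7.22 FPKM in PBS and 36.6, 36.2, 24.4 and 18.8 in PTH, with no overlap. It rose by 1.52 on the log2 scale (SE 0.31, limma adjusted p 0.00882) and at the common median 0.95 (limma adjusted p 0.0481). It passed in all 18 alternatives in which it was tested, but in 0 of 7 fits that joined the common median with a left-out library. Mrps18a (shared locus), the paralog built into the large subunit, had 7.55, 8.16 and 5.56 FPKM in PBS and 18.3, 16.3, 13.5 and 10.6 in PTH. Its groups did not overlap, and it rose by 0.99 on the log2 scale (SE 0.28, limma adjusted p 0.0287), or 0.41 at the common median (limma adjusted p 0.284). Mrps18c, the paralog closest in place to the bacterial protein, had 9.28, 4.37 and 7.61 FPKM in PBS and 13.8, 12.2, 9.85 and 6.62 in PTH. There PTH 4 lay below PBS 1 and PBS 3, and the log2 change was 0.56 (limma adjusted p 0.229) and -0.010 at the common median. In PBS the 3 paralogs had means of 9.56 ± 2.24, 7.09 ± 1.36 and 7.09 ± 2.5 FPKM (SD, n = 3) in the order b, a, c. In PTH they had means of 29.0 ± 8.87, 14.7 ± 3.38 and 10.6 ± 3.12 FPKM (SD, n = 4). Differences between the paralogs were not tested.

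Mrps30 (shared locus), a large subunit protein despite its symbol, had 5.43, 4.40 and 3.66 FPKM in PBS and 14.2, 14.4, 14.0 and 8.57 in PTH. PTH 4 was apart from the other 3 and still above PBS. Its log2 change came to 1.396 (SE 0.29, limma adjusted p 0.00942), and 0.82 at the common median (limma adjusted p 0.0566). Mrps24 (shared locus) encodes a protein near the entry of the messenger RNA. It had 8.67, 6.07 and 5.99 FPKM in PBS and 20.6, 16.1, 16.0 and 12.0 in PTH, with no overlap. It rose by 1.17 on the log2 scale (SE 0.28, limma adjusted p 0.0156), and 0.59 at the common median (limma adjusted p 0.131). The other 2 that rose were Mrps10 (0.94) and Mrps26 (1.71, shared locus). Mrps26 had the largest change of the Mrps genes, on PBS values of 5.86, 3.33 and 0.293 FPKM, of which PBS 3 rested on 3.0 estimated reads. It passed in 4 of 18 alternatives.

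By level, Mrps21 and Mrps34 stood beside Mrps18b as the highest of the Mrps genes, both with shared loci. Mrps21, a small protein with a bacterial counterpart, had 16.5, 20.9 and 18.6 FPKM in PBS and 43.8, 32.4, 32.4 and 22.0 in PTH, with no overlap. Its log2 change of 0.76 did not pass as deposited (limma adjusted p 0.0653) and passed without PTH 4 (0.93, limma adjusted p 0.0324). Mrps34, a protein without a bacterial counterpart, had 16.4, 11.8 and 12.8 FPKM in PBS and 25.7, 24.9, 17.5 and 16.2 in PTH. PTH 4 lay just below PBS 1, and the log2 change of 0.59 did not pass (limma adjusted p 0.128).

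Lowest in change were Mrps36, Mrps2 and Mrps9. Mrps2 and Mrps9 are core proteins of the small subunit with bacterial counterparts. Mrps2 had 12.1, 9.001 and 6.52 FPKM in PBS and 14.1, 11.1, 12.8 and 3.90 in PTH, and Mrps9 had 7.29, 4.999 and 5.44 in PBS and 8.92, 7.18, 7.69 and 3.17 in PTH. For both genes PTH 4 was the lowest of all 7 libraries. Their log2 changes were 0.081 and 0.11, and -0.49 and -0.47 at the common median, with no pass in either. Mrps36, the dehydrogenase component, had 1.503, 3.95 and 3.91 FPKM in PBS and 4.23, 1.79, 1.66 and 3.96 in PTH, which gave a log2 change of -0.089 on 2.0 to 11.0 estimated reads. Its pseudogene Mrps36-ps1 was the 1 member that missed the filter, with values above 0 in PTH 2 (0.417) and PTH 4 (0.659) alone. The other Mrps genes that did not pass were Mrps16, Mrps12, Mrps14, Mrps27, Mrps23, Mrps7, Mrps6, Mrps22, Mrps5, Mrps11, Mrps33, Mrps25, Mrps17, Mrps35, Mrps31, Mrps28 and Mrps15, from 0.87 to 0.24. Of these Mrps23 had groups that did not overlap.

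**Figure D2:**
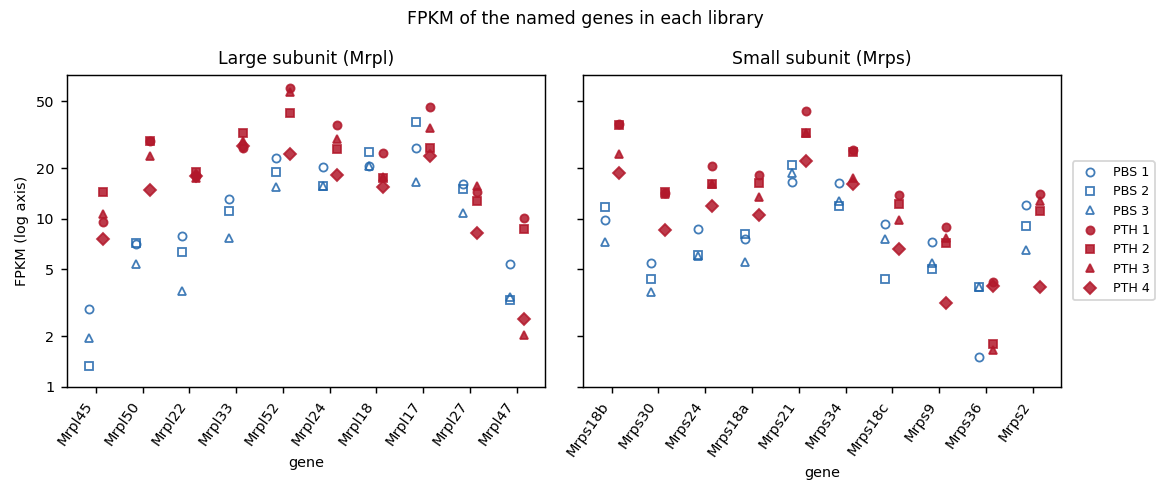
FPKM (log axis) of 10 Mrpl genes (left) and 10 Mrps genes (right) in each library, open blue symbols for PBS and filled red symbols for PTH. Mrpl45, Mrpl50, Mrpl22, Mrpl33, Mrps18b, Mrps30, Mrps24 and Mrps18a are separated by group, PTH 4 (diamonds) is the lowest PTH library in most of them, and Mrpl27, Mrpl47, Mrps9, Mrps36 and Mrps2 overlap.

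The promoters of 3 of these genes are shown, and all 3 carry the motif of NRF1 (nuclear respiratory factor 1), a factor long known to bind genes of mitochondrial function. Of the named genes with the smallest p, Mrpl45, Mrpl22 and Mrps18b were the first, in order of p, to hold any of 5 motifs searched in the 250 bases before the start. They were thus picked for holding a motif. Mrpl50 and Mrpl33, with smaller p than Mrps18b, held none of the 5, and neither did Mrps30 and Mrps24. The sequences are RefSeq's (GRCm38.p6), 5′ to 3′ on the strand of the gene, with matches in capitals. Mrpl45 lies on chromosome 11 (chr11:97315466-97315715, plus strand), Mrpl22 also on chromosome 11 (chr11:58171414-58171663, plus strand) and Mrps18b on chromosome 17 (chr17:35916441-35916690, minus strand).

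Mrpl45: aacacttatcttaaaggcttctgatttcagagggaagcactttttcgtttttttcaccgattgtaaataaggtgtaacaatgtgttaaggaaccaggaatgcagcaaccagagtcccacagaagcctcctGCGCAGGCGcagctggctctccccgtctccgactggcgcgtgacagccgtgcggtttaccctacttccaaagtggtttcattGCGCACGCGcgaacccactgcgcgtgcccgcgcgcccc

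Mrpl22: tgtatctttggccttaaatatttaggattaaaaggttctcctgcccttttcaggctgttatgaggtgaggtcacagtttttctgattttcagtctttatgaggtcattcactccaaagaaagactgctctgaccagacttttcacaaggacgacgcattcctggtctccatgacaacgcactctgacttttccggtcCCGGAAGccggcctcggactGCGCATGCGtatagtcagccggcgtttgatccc

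Mrps18b: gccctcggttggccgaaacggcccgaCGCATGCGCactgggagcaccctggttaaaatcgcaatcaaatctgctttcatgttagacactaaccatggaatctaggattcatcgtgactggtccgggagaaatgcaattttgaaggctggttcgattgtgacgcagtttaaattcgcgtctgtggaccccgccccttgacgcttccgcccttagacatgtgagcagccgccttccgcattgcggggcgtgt

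The capitals mark the NRF1 core, GCGCANGCG, found 2 times before Mrpl45, once before Mrpl22 and, on the other strand, once before Mrps18b. In Mrpl22 they also mark CCGGAAG, the ETS motif bound by GABPA. In Mrpl45 the nearer match ended 30 bases before the start, in Mrpl22 25 bases and in Mrps18b 216 bases. Both strands were searched, and no 2 matches of different motifs shared letters in a member's promoter. RefSeq promoters were matched for 67 of 77 members (73 promoters). The NRF1 core was in 16.4% of them, against 5.16% of all 32851 promoters in the table, and the ETS motif in 23.3% against 6.91%. AAGATGGCG, the YY1 core, was in 2.74% against 0.606%, the E-box CACGTG in 9.59% against 6.02%, and the cyclic AMP response element TGACGTCA in 2.74% against 1.55%. At least 1 of the 5 was in 49.3% against 17.8%. Among members that rose, 7 of 20 with a promoter (35%) held the NRF1 core, namely Mrpl45, Mrpl22, Mrps18b, Mrpl9, Mrpl12, Mrpl32 and Mrpl44. Among the other members 5 of 47 (10.6%) held it, namely Mrpl10, Mrpl17, Mrpl30, Mrpl39 and Mrps21. The ETS motif was in 7 of 20 members that rose and 10 of 47 others (21.3%), the cyclic AMP response element in 1 and 1, the E-box in 0 and 5 (10.6%) and the YY1 core in 0 and 2. These shares are descriptions of letters in a window and were not tested.

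Within each group the same libraries were high or low for most members, in part as over all tested genes. The FPKM of the 47 Mrpl genes summed to 460.4, 433.2 and 333.1 in PBS 1 to 3 against 935.1, 754.9, 709.6 and 512.9 in PTH 1 to 4. The 30 Mrps genes reached 248.1, 249.7 and 191.6 FPKM in PBS against 493.5, 413.2, 361.8 and 255.7 in PTH. In both subunits PTH 1 was highest and PBS 3 lowest, and the PTH 4 sum of the Mrps genes was only just above the highest PBS sum. As a share of all FPKM in a library, the members took 0.197% to 0.229% in PBS and 0.289% to 0.394% in PTH, with no overlap. The 2 families compared below did not overlap either. Nuclear respiratory chain subunits took 0.935% to 1.005% in PBS and 1.417% to 1.771% in PTH. Cytosolic ribosomal proteins took 1.277% to 2.042% in PBS and 3.854% to 4.982% in PTH. Such a share also depends on the other genes of a library. Of the PTH libraries, PTH 1 was highest for 52 of 76 members (68.4%, against 35.1% of all tested genes) and PTH 4 lowest for 56 (73.7%, against 42.5%). Of the PBS libraries, PBS 1 was highest for 42 members (55.3%, against 48.9%) and PBS 3 lowest for 46 (60.5%, against 48.8%). At the common median, the members' median deviation from their mean over the libraries was 0.46 in PTH 1, 0.092 in PTH 2, 0.094 in PTH 3 and -0.24 in PTH 4. In PBS it was -0.088, 0.0026 and -0.19, so over both subunits together PTH 4 lay below the PBS libraries once the libraries were shifted. This held for the Mrps genes alone (-0.25 in PTH 4 and -0.14 in PBS 3). For the Mrpl genes alone PBS 3 was lower than PTH 4 (-0.30 and -0.24). The median SD of the log2 values was 0.38 over members in PBS and 0.46 in PTH, and over all tested genes 0.40 and 0.41.

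Nuclear subunits of the respiratory chain and ATP synthase, the partners of the proteins that mitoribosomes make, were set beside the members. Of all tested genes 22.8% rose and 2.37% fell, and 3.25% rose at the common median. Of the 80 subunits tested, 26 rose (32.5%) and none fell, with a median of 0.73. At the common median 3 of the 80 passed (median 0.15), a share near that of all tested genes. The order of these subunits over libraries was the same as that of the members, highest in PTH 1 and lowest of the PTH libraries in PTH 4. Proteins of the cytosolic ribosome, which translates nuclear messages, rose in 74 of 83 cases (89.2%), with a median of 1.38, and 30 passed at the common median (median 0.81). Here PTH 2 was the highest PTH library for 68 of 83 genes, and PBS 2 was the lowest PBS library for 69, where the members had PBS 3. The difference between the 2 kinds of ribosome was not tested.

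**Figure D3:**
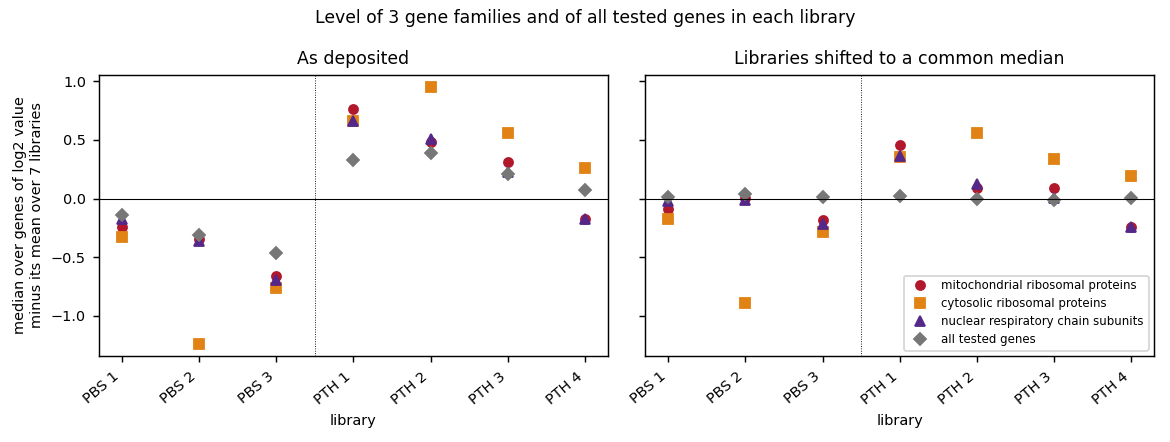
Median over genes of the log2 value minus its mean over the 7 libraries, for mitochondrial ribosomal proteins (76 genes), cytosolic ribosomal proteins (83), nuclear respiratory chain subunits (80) and all 11861 tested genes, as deposited (left) and with libraries shifted to a common median (right). Mitochondrial ribosomal proteins and respiratory chain subunits lie almost on each other, highest in PTH 1 and, among the PTH libraries, lowest in PTH 4, while cytosolic ribosomal proteins are highest in PTH 2 and lowest in PBS 2.

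Other genes of mitochondrial translation are given by list, beside the 22.8% of all tested genes that rose, the 2.37% that fell and the 3.25% that rose at the common median. Of 7 mitoribosome proteins that carry other symbols, only Ict1, a large subunit protein with a release factor fold, rose (log2 change 1.004, limma adjusted p 0.0348, and 0.43 at the common median without a pass), and the median was 0.65. Ict1 stood at 9.54, 8.32 and 10.6 FPKM in PBS and 27.1, 12.6, 24.4 and 17.2 in PTH, with no overlap. The others were Chchd1, Mrp63, Ptcd3, Gadd45gip1, Aurkaip1 and Dap3, which ranged from 0.064 for Dap3 to 1.04 for Chchd1 without passing.

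Factors that assemble the mitoribosome or modify its RNA rose in 5 of 26 cases (19.2%, against 22.8% of all tested genes), with a median of 0.55. None passed at the common median (3.25% of all tested genes), where the median turned to -0.018. The smallest p belonged to Mrm1, a methyltransferase of the large ribosomal RNA, with 0.203, 0.129 and 0.00 FPKM in PBS and 0.864, 1.82, 2.91 and 1.46 in PTH, which gave a log2 change of 1.82 (limma adjusted p 0.0101). Ngrn, which takes part in the upkeep of that RNA, followed with 4.67, 3.36 and 2.52 FPKM in PBS and 12.1, 12.3, 10.7 and 6.83 in PTH, which gave a log2 change of 1.45 (limma adjusted p 0.0109). For both genes the groups did not overlap, and the other 3 were Mterfd2 and Malsu1, both with shared loci, and Fastkd2. Every PBS value of Mrm1 was under the 0.5 FPKM of the filter. It thus entered the test only through the PTH group, where it is high, and its call is no independent support.

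None of 15 translation factors passed the limma test in either direction, with 2 at an unadjusted p under 0.05, both higher, and the median of 0.33 was below that of all tested genes and turned to -0.24 at the common median. Among them the elongation factor gene Tufm had 21.8, 17.5 and 8.69 FPKM in PBS and 24.9, 13.6, 17.3 and 13.2 in PTH, with overlap. The stabilising factor gene Slirp (shared locus) had the smallest adjusted p (0.0549 by limma). Both were picked from the list after their values were seen.

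Of 21 mitochondrial aminoacyl-tRNA synthetase genes, 3 rose and 1 fell, with a median of 0.69 (0.12 at the common median). Kars, which also serves the cytosol, had 11.8, 9.23 and 11.5 FPKM in PBS and 22.9, 23.6, 17.8 and 18.8 in PTH, which gave a log2 change of 0.91 (limma adjusted p 0.0254). Gatc, part of the complex that makes glutaminyl-tRNA in mitochondria, had 2.59, 2.38 and 1.97 FPKM in PBS and 6.496, 7.17, 3.86 and 5.25 in PTH, which gave a log2 change of 1.11 (limma adjusted p 0.0260). The groups overlapped for neither, and Fars2 was the other gene that rose. None of the 3 passed at the common median. Lars2 fell: it stood at 4777, 7868 and 11090 FPKM in PBS and 1747, 3991, 2056 and 4407 in PTH, with a log2 change of -1.41 (limma adjusted p 0.0307) and -1.98 at the common median (limma adjusted p 0.0287). Every PTH library was below every PBS library. The highest value of any other gene of the list in a library was 23.6 FPKM. The mouse Lars2 transcript is known to hold a stretch that resembles mitochondrial ribosomal RNA, so its values may include reads of that RNA and are uncertain. Whether they do was not tested.

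Of 10 tested genes for copying and reading mitochondrial DNA, 3 rose, with a median of 0.81 (0.23 at the common median). Mgme1 (shared locus), a nuclease of mitochondrial DNA replication, had 0.883, 0.837 and 0.375 FPKM in PBS and 2.52, 5.63, 4.96 and 4.71 in PTH, which gave a log2 change of 2.03 (limma adjusted p 0.00604). Polg2 (shared locus), the accessory subunit of the mitochondrial DNA polymerase, stood at 0.388, 0.430 and 0.000858 FPKM in PBS and 1.61, 2.24, 4.37 and 2.63 in PTH, which gave a log2 change of 2.04 (limma adjusted p 0.00771). These 2 also passed at the common median, and Ssbp1 did not. Every PBS value of Polg2 was under the FPKM minimum of the filter. Polg2 thus entered the test only through the PTH group, where it is high, and its calls are no independent support. Mgme1 was also low in PBS, with its PBS 3 value under that minimum. Tfam, the packaging protein and activator of mitochondrial DNA, did not pass, with a log2 change of 0.36.

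Nuclear regulators of mitochondrial genes rose in 4 of 10 cases (22.8% of all tested genes), with a median of 0.84. None passed at the common median (3.25% of all tested genes), where the median was 0.27. Gabpb1 and Gabpa encode the partners of the factor that binds the ETS motif. Gabpb1 had 3.67, 2.08 and 1.64 FPKM in PBS and 5.06, 9.48, 6.27 and 8.41 in PTH, which gave a log2 change of 1.42 (limma adjusted p 0.0160). Gabpa (shared locus) had 9.67, 8.99 and 12.6 FPKM in PBS and 22.6, 20.5, 25.6 and 16.7 in PTH, which gave a log2 change of 0.9998 (limma adjusted p 0.0215). Neither pair of groups overlapped. Nrf1 (1.22) and Yy1 (0.86) were the other 2 that rose. Ppargc1a, a coactivator that cyclic AMP induces in liver, did not pass, with 8.84, 3.90 and 15.4 FPKM in PBS and 0.627, 4.54, 10.8 and 7.02 in PTH.

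**Figure D4:**
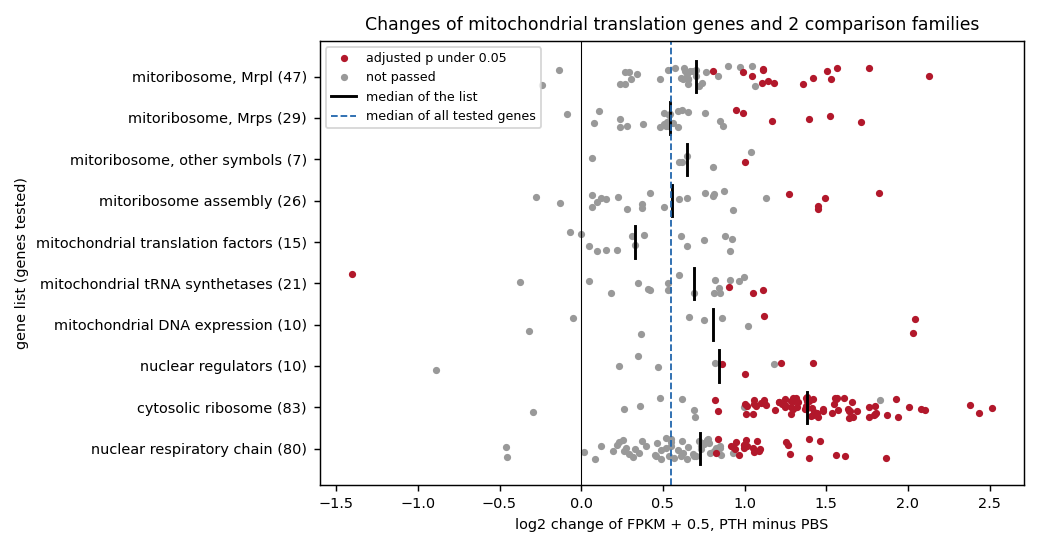
Change on the log2(FPKM + 0.5) scale (PTH minus PBS, horizontal axis) of each tested gene in 10 lists, with the number tested in parentheses; red points passed an adjusted p of 0.05, black bars are list medians and the dashed line is the median of all tested genes. The medians of the mitoribosome lists lie between 0.55 and 0.70, that of translation factors at 0.33 and that of the cytosolic ribosome at 1.38; the single point at -1.41 is Lars2.

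Several properties of the members bear on how their values can be read. The table lists the locus of 31 of 77 members (40.3%) for another gene too, against 26.0% of all genes, and 10 of the 21 that rose are among them. Without shared loci, 11 of 46 members rose (23.9%, against 23.0% of all genes then tested), namely 10 of 29 Mrpl and 1 of 17 Mrps genes. In GENCODE M21, 34 members overlap a gene on the opposite strand, 12 of them among the 21. The share of all genes with such an overlap was not computed, so these counts cannot be called high or low. The sources used here do not say whether counting used strand. Pseudogene copies by name exist in GENCODE M21 for Mrpl48, Mrpl23 and Mrps36, none of which passed. Members have short transcripts, with a median of 1047 bases against 2114 for all tested genes, and a like GC content of 51.1% against 50.8%. Over the libraries of both groups, the members that rose had a median level of 12.9 FPKM and those that did not pass 9.58 FPKM. That level includes the PTH libraries, where called members are higher, so it cannot show that they differed in level in PBS. Removing each library's trend with length and GC content left 13 of 46 Mrpl and 5 of 29 Mrps genes called, 24.0% of the members against 24.2% of all genes then tested.

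Some markers of other cell types, and genes listed for handling stress, also differed between the groups. Their part in the members' changes was not tested, nor was whether the genes listed for handling stress reflect handling. The counts below stand beside all tested genes, of which 22.8% rose and 2.37% fell as deposited. At the common median 3.25% of all tested genes rose and 5.25% fell. All 4 tested of 7 neutrophil markers fell, and the list summed to 37.9 to 778.9 FPKM in PBS and 1.88 to 29.1 in PTH, with Ly6g at 0 in both groups and Camp and Elane at 0 in PTH. Of 6 Kupffer cell and macrophage markers 4 fell and 1 rose, with sums of 90.5 to 125.8 in PBS and 66.0 to 97.4 in PTH and none at 0. Of 14 genes listed for handling stress 6 fell, with sums of 458.4 to 1380 in PBS and 163.4 to 235.0 in PTH and none at 0. Of 4 tested of 5 proliferation markers 1 fell (sums 6.07 to 21.6 in PBS and 1.70 to 4.15 in PTH). Cholangiocyte (5), stellate (6) and endothelial (6) markers each had 1 gene that rose and none that fell. Their sums overlapped, at 58.7 to 89.0, 54.0 to 69.2 and 53.8 to 63.7 FPKM in PBS and 36.0 to 75.4, 57.6 to 100.6 and 56.9 to 88.4 in PTH. No T or B cell marker was tested, and their sums were at most 0.964 in PBS and 1.52 in PTH. Of 8 hepatocyte markers 1 fell. At the common median no marker of any list rose. There 1 of 5 cholangiocyte, 3 of 4 proliferation, 2 of 8 hepatocyte, 4 of 6 macrophage, 4 of 4 neutrophil and 6 of 14 stress genes fell.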

How the data were processed

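Libraries were grouped by the treatment label (3 PBS, 4 PTH). The deposited table carries 2 measures per library, FPKM and count, per the file headers. Its counts, as the authors deposited them, are not whole: in each library 92.2% to 94.1% of values above 0.5 of a step were whole multiples of it within 0.05. These columns were therefore read as a signal that the authors had scaled per library, and no count test was run. The submitters' processing notes name Bowtie 0.12.2 and the build mm8. The quantifier was not stated. Gene positions in the table lie on GRCm38. Overlaps and lengths came from GENCODE M21, which holds the identifiers of 76 of 77 members. The deposited locus length was not used in a test.

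Genes reaching 0.5 FPKM in 3 or more libraries (11861) were tested. Limma 3.58.1 (R 4.3.3; eBayes, trend, robust) was fitted to log2(FPKM + 0.5) of the deposited values, two-sided, with Benjamini-Hochberg adjustment over all tested genes and a threshold of 0.05. The fit was run on simulated data in which few genes changed, in both directions, with no shift between libraries. The deposited table differs in these points, so that run cannot speak for the calls given here. Exact permutation tests used SciPy 1.17.1. The members and lists were chosen with earlier results of these data known. Genes were named by rule: in each subunit the 4 smallest p among those past the threshold, the 3 highest mean FPKM, the 3 lowest changes and the Mrps18 genes, and in other lists the 2 smallest p in each direction. Other members are given by outcome, and the few described there were picked after their values were seen.

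Alternatives left out each library, added the replicate number as a block, scaled to a common median or by quantiles, dropped the filter or raised it to 1 FPKM, used pseudocounts of 0.1 and 1, left out trend and robust, added array weights, used the scaled counts (pseudocount and minimum 5), left out shared loci, or removed length and GC trends (splines, 4 degrees of freedom). Leaving out libraries at the common median and the split by assembled particle were added after seeing the data.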

Additional observations from a re-analysis of the deposited data

Results flagged for a closer look

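Mrps30 in PTH was the 1 value that stood apart among the 22 groups of 4 PTH libraries looked at (20 named genes and the sums of both subunits). PTH 4 was at 8.57 FPKM and the other 3 between 14.0 and 14.4, and this gap took 0.936 of the range, above Dixon's critical value for 4 samples. Chance alone flags about 1 in 20 groups. PTH 4 was the lowest PTH library for 56 of 76 members, and Mrps30 passed the test in 7 of 7 fits that left out a library as deposited and in 0 of 7 at the common median.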

How the results depend on the processing

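The edgeR test was not run, since whole reads were not recovered. Leaving out each library in turn gave 6 to 17 Mrpl and 2 to 8 Mrps genes higher in PTH, beside 8.57% to 23.5% of all genes then tested. None was lower, as in every other alternative that changed 1 choice. Scaling to a common median or by quantiles gave 4 Mrpl and 1 Mrps genes higher under both, with medians of 0.13 and 0.13 for Mrpl and -0.027 and -0.041, below 0, for Mrps. The common-median counts fell to between 0 and 4 Mrpl and to 0 Mrps genes when a library was also left out. Without PTH 1 Mrpl18 was then lower. Of all genes tested in these fits, 5.55% were higher without PTH 1 and 0.584% to 1.43% without another library, against 3.25% with all libraries. Without shared loci 1 Mrps gene was higher; the test then covers fewer genes. Over all tested genes 2709 were higher and 281 lower, and 385 and 623 at the common median, 467 and 510 with quantiles, and 998 and 122 without PTH 2.

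No named gene whose sign turned passed the test on either side. With the common median and with quantiles, log2 changes were -0.27 and -0.17 for Mrpl17, -0.34 and -0.31 for Mrpl47, -0.010 and -0.043 for Mrps18c, -0.47 and -0.47 for Mrps9 and -0.49 and -0.51 for Mrps2. Mrpl47 was at -0.093 with array weights and Mrps36 at 0.18 with the scaled counts. Leaving out libraries, ranges that crossed 0 were -0.30 to 0.050 for Mrpl27, -0.10 to 0.58 for Mrpl47, -0.047 to 0.41 for Mrps9, -0.47 to 0.10 for Mrps36 and -0.13 to 0.48 for Mrps2. The cause was not tested. Same-numbered PBS and PTH libraries correlated at -0.031, -0.16 and 0.010 in their deviations, and differently numbered ones at -0.198 to 0.215. Deviations from the means of such small groups cannot show whether the numbers pair the libraries. The fit with the replicate number as a block gave 12 Mrpl and 4 Mrps genes higher, 21.1% of members against 13.1% of all tested genes. It turned Mrpl27 to 0.050. These values are of the 20 named genes. Over all 76 tested members, 3 changes were below 0 as deposited, 27 at the common median and 28 with quantiles. Depth limits single genes: 27 members had under 10 estimated reads in PBS 3.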
